A study of Mus musculus with 24 samples.

Results

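Copy number profiles of murine neuroblastoma tumours were compared between 8 tumours of mice with an IGF2BP1 transgene (TI) and 8 tumours of mice that carried transgenes for both IGF2BP1 and MYCN (TIM). These 16 tumours were assigned by their sample descriptions and are 16 of 24 samples. The remainder are 5 adrenal glands of MYCN-transgenic mice (AGM), used here as background, and 3 adrenal glands of wildtype mice (AG), to which every value is a ratio. All samples were analysed by shallow whole genome sequencing (sWGS), in which few reads per position suffice to count reads in large windows. The TI tumours are labelled IGF2BP1 +/+, CRE + with the exception of TI replicate 1, which is labelled IGF2BP1 +/-, CRE +. The TIM tumours are labelled IMP1/MYCN, CRE + (IMP1 is another name of IGF2BP1), the AGM glands MYCN fl/wt, CRE +, and the AG glands CRE -. Both transgenes were inserted at Rosa26 on Chr 6 behind a floxed stop and a CAG promoter, and the Cre was expressed from Dbh regulatory sequence, so that recombination was directed to sympathoadrenal cells of animals with an otherwise murine genome. Adrenal tumours, according to their source, are TI replicate 6 as well as replicates 1 and 5 of TIM. Animal ages are not in the labels, and the labels do not tie tumours to animals, so p-values cover the spread between tumours, some of which may come from 1 animal.

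IGF2BP1 is an RNA-binding protein that protects its target mRNAs, among them the MYCN mRNA, from degradation. MYCN is the transcription factor whose amplification defines an aggressive class of human neuroblastoma. Human neuroblastomas carry either gains and losses of whole chromosomes or segmental changes, and the segmental changes that recur are loss of 1p and 11q and gain of 2p and 17q. In the mouse, sequence syntenic to 17q lies on distal Chr 11, which holds Igf2bp1, that of 2p on Chr 12, which holds Mycn, and on Chr 17, which holds Alk, that of 1p36 on distal Chr 4, and that of 11q on Chr 9.

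Values are log2 ratios of segments on GRCm39. A ratio of 3 copies to 2 in all cells equals 0.58 and a ratio of 1 copy to 2 equals -1. Gains (at least 0.3) and losses (at most -0.4) follow the thresholds of the study, and sequence between 0.1 and 0.3 or between -0.4 and -0.1 was called partially raised or partially lowered. The mean log2 ratio of an autosome lay between 0.0022 and 0.023 in all 95 combinations of autosome and AGM gland, which gives the background of the measurement. The deposited medians compress small shifts: in 36 segments of at least 10 Mb with a median in the partially raised range, the segment mean, less the level of the tumour over all autosomes, was 1.80 times the median (median of the ratios), against 0.93 times in 52 gained segments. Partial shifts were therefore not converted into shares of cells. Sequencing depth per tumour is not in the segment table. The title prefix (SH or AGH, unexplained in the labels) is confounded with genotype. All 8 TIM tumours and all 5 AGM glands are AGH, 7 of 8 TI tumours and the AG reference are SH, and only TI replicate 8 is AGH. The tests below therefore compare prefixes as well as genotypes, which cannot be told apart, and the values of TI replicate 8 are given beside those of autosomes and of measures per tumour.

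TI and TIM tumours had different whole-genome profiles. Raised Chr 6 was found in both groups, TI tumours also carried shifts of Chr 12, Chr 11, Chr 17, Chr 9 and Chr 4, and TIM tumours carried few shifts besides Chr 6. Over the 19 autosome means, 30.3% of the squared distance between tumours lay between the groups (pseudo-F = 6.08, exact permutation p = 3.11e-04 over all splits of 8 against 8). Without Chr 12 the share was 20.2% (exact permutation p = 0.00451), and without Chr 11 and Chr 12 it was 18.95% (exact permutation p = 0.0101). The nearest neighbour of a tumour by autosome means was in its own group for 6 of 8 TI and 8 of 8 TIM tumours. TI replicate 4 was nearest to TIM replicate 1, both with raised Chr 6, TI replicate 8 was nearest to TI replicate 2, and TI replicate 6 was nearest to TIM replicate 8, the tumour with the smallest distance to the AGM mean. At a limit of 0.1, TI tumours had 1 to 7 raised autosomes (median 3.5) and 0 to 5 lowered autosomes (median 1.5), and TIM tumours had 0 to 3 raised (median 1) and 0 or 1 lowered autosomes. None was raised or lowered in AGM.

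**Figure D1:**
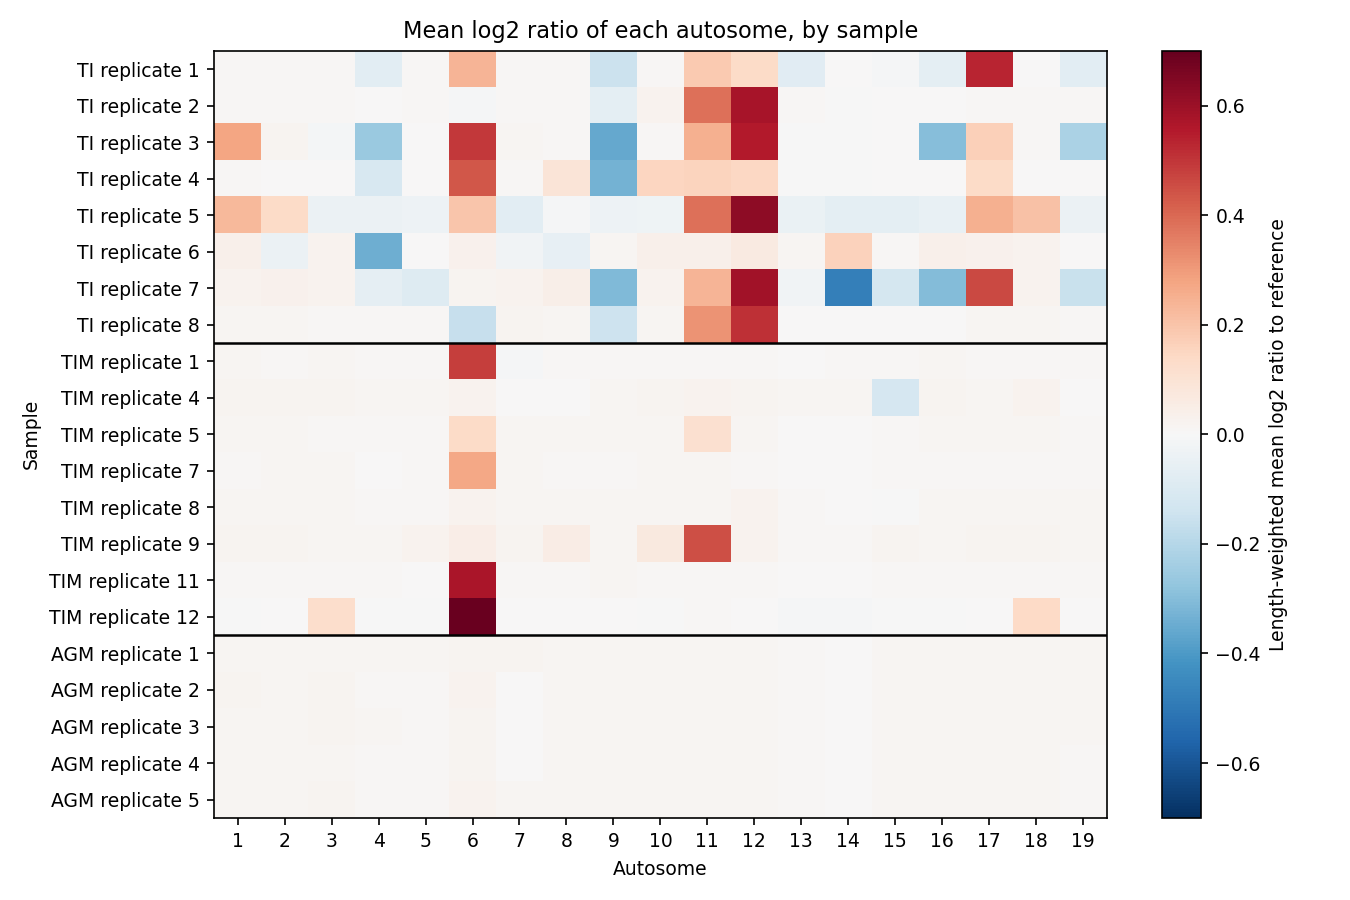
Length-weighted mean log2 ratio (colour) of the 19 autosomes (columns) in 8 TI tumours, 8 TIM tumours and 5 AGM adrenal glands (rows, groups split by lines). TI rows show raised Chr 11 and Chr 12 in 7 of 8 tumours and lowered Chr 9 in 5, TIM rows are mainly raised on Chr 6, and AGM rows stay between 0.0022 and 0.023.

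Of 19 autosomes, 4 differed between TI and TIM at an adjusted p under 0.05, which is 21.1% of those tested (two-sided exact permutation test of the rank sum, Benjamini-Hochberg over 19). They were Chr 12, Chr 4, Chr 9 and Chr 17. Chr 12 and Chr 4 were called in each of the 16 repeats that left out 1 tumour, Chr 17 in 5 and Chr 9 in 2, although the unadjusted p of Chr 9 and Chr 17 did not exceed 0.0205 in any of these repeats. The number of called autosomes fell to 2 without any one of TI replicates 1, 3, 4, 5 and 7 or TIM replicates 1, 5, 7, 8, 11 and 12, and rose to 8 without TI replicate 6. Among the 7 TI and 6 TIM tumours outside the adrenal gland Chr 9, Chr 12 and Chr 16 were called, while Chr 4 (unadjusted exact permutation p = 0.0140) and Chr 17 were not.

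Chr 12 separated the groups completely. Its mean log2 ratio was 0.14, 0.58, 0.56, 0.15, 0.63, 0.063, 0.59 and 0.51 in TI replicates 1 to 8. In TIM it ranged from 5.75e-04 to 0.024 with a median of 0.011. Every TI tumour lay above every TIM tumour, in 64 of 64 pairs, and also above the AGM range. The difference of medians was 0.52 on the log2 scale (exact permutation p = 1.55e-04, the smallest that 8 against 8 allow, adjusted p = 0.00295). In 5 TI tumours the gain covered the whole chromosome at 0.51 to 0.64, close to 1 extra copy in all cells, whereas TI replicates 1, 4 and 6 had a value between the background and that level. TI replicate 8, at 0.51, exceeded all 8 TIM tumours that share its prefix.

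Chr 11 was raised in its distal part in 7 of 8 TI tumours. The mean over the autosome ranged from 0.033 to 0.39 in TI (median 0.25) and from 0.0078 to 0.45 in TIM (median 0.012). This difference missed the threshold after adjustment (exact permutation p = 0.0148, adjusted p = 0.0561), and TI was the higher one in 55 of 64 pairs. TI replicate 8 was at 0.31. The call rested on single tumours, since Chr 11 was called without TIM replicate 9 (unadjusted exact permutation p = 6.22e-04) or without TI replicate 6 (0.0140). With the median over the bins of Chr 11 in place of the mean, the exact permutation p was 0.798. The gains of TI replicates 1, 2, 3, 4 and 7 covered only 29.3 to 40.9% of Chr 11, so a median of bins cannot register them. The gains of 6 TI tumours were segmental, reached the distal end and began at 6 positions between 58.28 and 86.1 Mb, the nearest of them 1.36 Mb apart. In TI replicate 5 Chr 11 was raised from 3.26 Mb onwards, at 0.23 to 0.34 up to 79.3 Mb and at 0.61 distal of it. The gains of all 7 tumours shared 35.7 Mb, chr11:86100001-121800000. By contrast, TIM replicate 9 gained the whole of Chr 11 (118.2 Mb at 0.48), and TIM replicate 5 gained 11.14 Mb from 96.78 to 107.92 Mb at 0.41.

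Chr 17 was raised in 5 TI tumours. Its mean ranged from 0.0088 to 0.53 in TI (median 0.15) and from 2.52e-05 to 0.017 in TIM (exact permutation p = 0.0104, adjusted p = 0.0495). TI replicates 1 and 7 held gains of the whole chromosome (0.48 to 0.58), TI replicates 3, 4 and 5 were partially raised over most of its length, and TI replicates 2, 6 and 8 were at 0.0088, 0.030 and 0.015. The TI tumour with the AGH prefix thus lay within the TIM range.

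Chr 9 and Chr 4 were lowered in TI. The mean of Chr 9 ranged from -0.36 to 0.015 in TI (median -0.15), with 5 tumours at or below -0.1, and from 4.80e-04 to 0.015 in TIM (exact permutation p = 0.00699, adjusted p = 0.0443). TI replicate 8 was at -0.15, below all 8 TIM tumours. The mean of Chr 4 ranged from -0.34 to 0.0072 in TI (median -0.069) and from -0.0014 to 0.013 in TIM (exact permutation p = 0.00186, adjusted p = 0.0177). All 8 TI tumours lay below the narrow AGM range of 0.010 to 0.012, but so did 6 TIM tumours. Only TI replicates 3, 4 and 6 passed -0.1 on Chr 4, so that the rank difference rests in part on shifts that are small beside a lost copy, and TI replicate 8, at 0.0072, lay inside the TIM range. Chr 16 and Chr 19 were also lower in TI at an unadjusted exact permutation p of 0.026 and 0.0222, with adjusted p-values of 0.0704 for both, and in each 2 TI tumours and no TIM tumour were at or below -0.1. TI replicate 8, at 0.0016 on Chr 16 and 0.00997 on Chr 19, lay inside the TIM range on both.

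Chr 6, which bears the transgenes, was raised in both groups and did not pass the test. It ranged from -0.16 to 0.49 in TI (median 0.11) and from 0.026 to 0.69 in TIM (median 0.20), with TIM higher in 43 of 64 pairs (two-sided exact permutation p = 0.279, adjusted p = 0.407). At the limit of 0.1 it was raised in 4 TI and 5 TIM tumours. TI replicates 3 and 4 (0.44 to 0.51) and TIM replicates 1, 11 and 12 (0.48 to 0.72) gained the whole chromosome, and TIM replicate 7 gained 57.4 Mb up to its distal end at 0.60. TI replicate 8 lost 26.84 Mb of distal Chr 6 at -0.99, the only loss of at least 5 Mb on Chr 6 in either group.

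**Figure D2:**
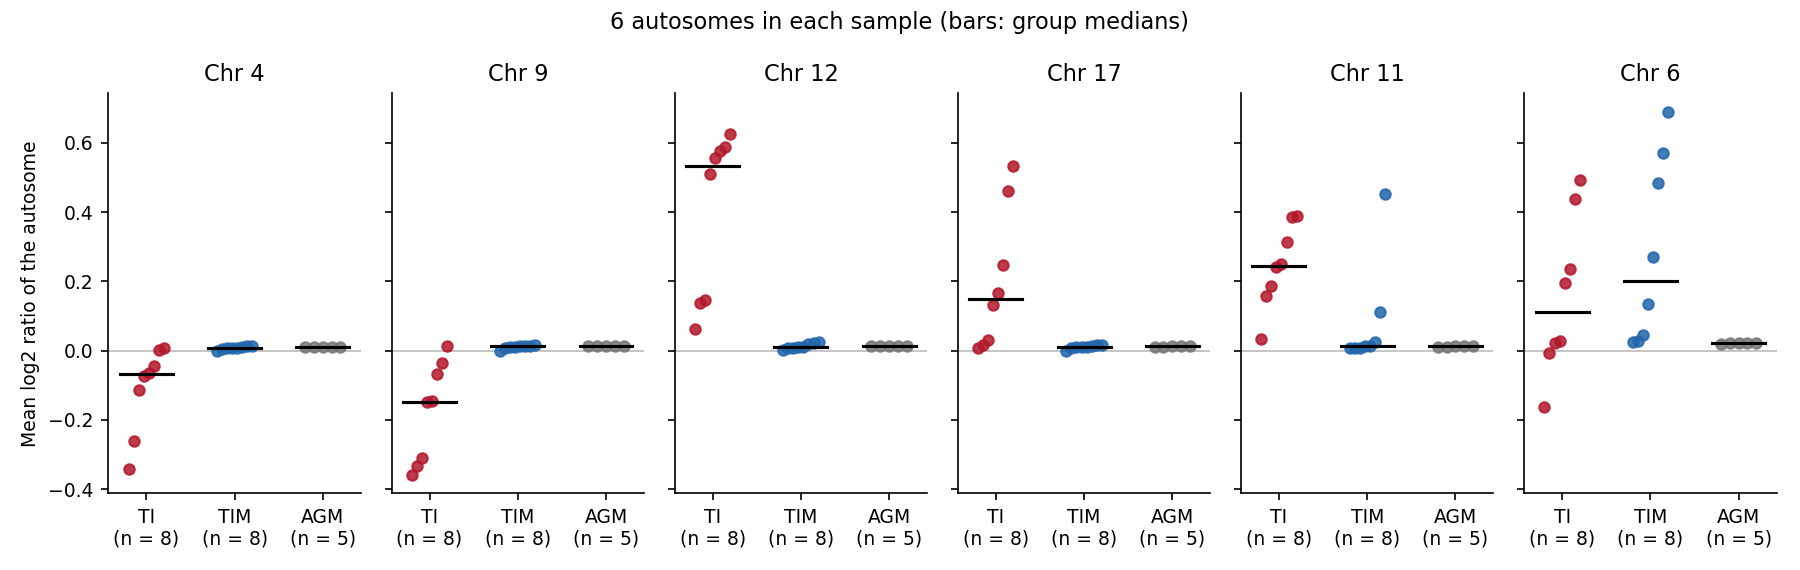
Mean log2 ratio (y axis) of Chr 4, 9, 12, 17, 11 and 6 in each TI (n = 8) and TIM (n = 8) tumour and AGM gland (n = 5), with points as samples and bars as group medians. TI lies above TIM without overlap on Chr 12 only, falls below it for most tumours on Chr 4 and Chr 9, and overlaps TIM on Chr 6.

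The gene-level comparison used the mean log2 ratio over the body of 20604 autosomal protein-coding genes. Of these, 4433 (21.5%) differed at an adjusted p under 0.05, 2202 higher in TI (10.7%) and 2231 lower in TI (10.8%), and 3308 (16.1%) also had medians at least 0.1 apart. All 639 genes of Chr 12 were called, and each of them separated the groups without overlap. Called genes also made up 1202 of 1209 on Chr 9, 892 of 1057 on Chr 17, 668 of 1616 on Chr 11 and 536 of 1304 on Chr 4. On Chr 4 no called gene had medians over 0.070 apart, and on Chr 13, Chr 14 and Chr 16 nearly all called genes differed by less than 0.1. The Chr 4 count also depended on the processing. It was 44 with centred profiles and 294 with the segment mean, where 4860 and 4104 genes were called over all autosomes. Genes on 1 segment share 1 value, so these counts measure the length of shifted sequence and not independent events. The count depended on single tumours: it was 646 without TI replicate 3, 5 or 7, of which 639 were the genes of Chr 12, 1025 without TI replicate 1 and 2454 to 2852 without TI replicate 4 or TIM replicate 1, 5, 7, 8 or 11. The split by direction moved as well. Without TI replicate 3, 5 or 7, 644 genes were higher and 2 lower in TI. Without TIM replicate 12 the numbers were 1902 and 4534, and outside the adrenal gland 1314 and 2685.

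**Figure D3:**
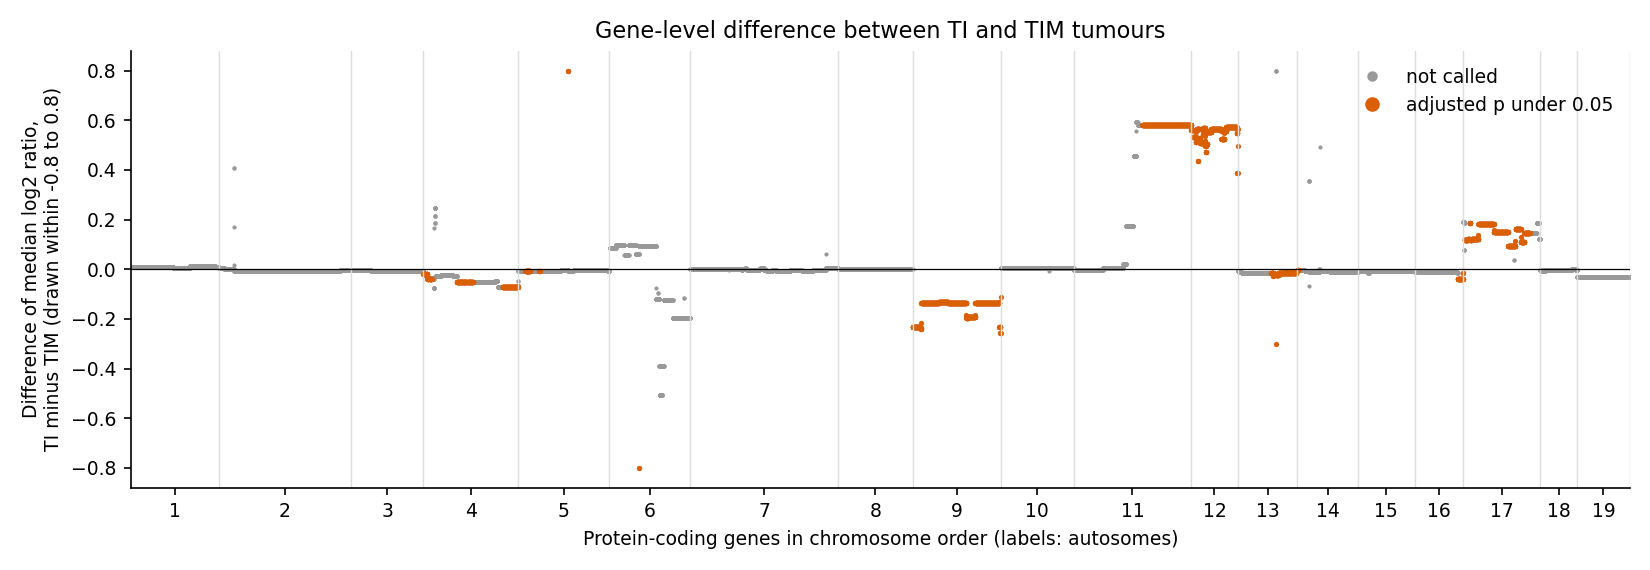
Difference of median log2 ratio, TI minus TIM (y axis, drawn within -0.8 to 0.8), for 20604 protein-coding genes in chromosome order (x axis), with called genes in orange. Runs of called genes lie above 0 on distal Chr 11, Chr 12 and Chr 17 and below 0 on Chr 9 and Chr 4, and the single called points at the limits are focal loci.

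Among genes of neuroblastoma loci and pathways, 41 of 95 were called, 19 higher and 22 lower in TI, which is 43.2% against 21.5% of all genes. The lists were built around the syntenic regions that shift here, so the excess describes those regions. Of 15 genes syntenic to 17q, 11 were higher in TI with a median difference of 0.58 over the list, against -0.0045 over all genes tested. These calls also depended on single tumours, since only 5 genes of Chr 11 were called without TI replicate 3, 5 or 7. Igf2bp1 (chr11:95847989-95896911) had log2 ratios of 0.57, 0.96, 0.60, 0.53, 0.61, 0.028, 0.62 and 0.59 in TI replicates 1 to 8. In TIM it stood at 0.59 in replicate 9, at 0.22 in replicate 5 and between 0.0078 and 0.026 in the other 6 tumours. The groups therefore overlapped through TI replicate 6 and TIM replicates 5 and 9 (exact permutation p = 0.00295, adjusted p = 0.0271). Birc5, an inhibitor of apoptosis, Top2a, a DNA topoisomerase, Brca1, a DNA repair gene, and the nucleoside diphosphate kinase genes Nme1 and Nme2 had the same group medians of 0.60 and 0.013 and the same adjusted p of 0.0271. Ppm1d, the phosphatase that dampens p53 signalling, Tbx2 and Brip1 lie just proximal of the region shared by the TI tumours and were not called (adjusted exact p = 0.0733 each), and neither was Nf1, an inhibitor of RAS (adjusted exact p = 0.369).

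The 2p-syntenic genes divided by chromosome. All 7 on Chr 12 were higher in TI without overlap, as were all 639 genes of that chromosome, against 10.7% of all genes called higher in TI. Among them were Mycn, the neighbours Ddx1 and Nbas, the polyamine enzyme gene Odc1 and the ribonucleotide reductase gene Rrm2. Mycn (chr12:12986076-12992915) had a median of 0.54 in TI (0.064 to 0.64) and 0.0059 in TIM (0 to 0.023), with an exact permutation p of 1.55e-04 and an adjusted p of 0.00500. Mycn was thus not raised in any TIM tumour, and in TI it was raised with the whole chromosome and not focally. Alk, the receptor tyrosine kinase mutated in familial neuroblastoma, and Epas1, a hypoxia-inducible factor, sit on Chr 17 and were not called, with a TI median of 0.16 and 0.20 (adjusted exact p = 0.0733 for both).

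Of 22 genes of regions lost in human neuroblastoma, 18 were lower in TI, against 10.8% of all genes. These 18 lie on Chr 4 and Chr 9, and their calls depended on single tumours. No gene of either autosome was called without TI replicate 3, 5 or 7, and none of Chr 9 without TI replicate 1. With centred profiles 44 genes of Chr 4 were called in all, against 536. All 8 genes syntenic to 11q were called, among them the DNA damage kinases Atm and Chek1, the histone variant gene H2ax and the adhesion molecule genes Cadm1 and Ncam1. Atm had a TI median of -0.12 (-0.34 to 0.015) and a TIM median of 0.013 (0.0049 to 0.030), with an adjusted exact p of 0.0271. Mre11a, near the proximal end of Chr 9, had a median of -0.23 and a minimum of -0.63 in TI, where TI replicate 3 passed the threshold for a loss (adjusted exact p = 0.0484). Of 8 genes syntenic to 1p36, 7 were called with a TI median of -0.064, among them the chromatin remodeller Chd5, the kinesin gene Kif1b and the transcription factor gene Casz1 (adjusted exact p = 0.0371). Chd5 was at -0.997 in TI replicate 4, -0.94 in TI replicate 6 and -0.25 in TI replicate 3, and between -0.075 and 0.0076 in the other 5 TI tumours. The median of this list hence stands for small shifts, and the lost copies were those of 2 tumours. Of 6 genes syntenic to 3p, 3 were lower in TI, all on Chr 9, among them Rassf1 and Ctnnb1 (adjusted exact p = 0.0330 each), whereas Vhl, near Rosa26 on Chr 6, Fhit and Robo2 were not called.

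In the other 6 lists 6 of 50 entries (12%) were called, below the 21.5% of all genes, and Cdkn2a, Cdkn1a, Map2k1 and Igf2bp1 among them lie on the shifted Chr 4, Chr 17, Chr 9 and Chr 11. Of 12 p53 and RB pathway genes, 2 were called: Cdkn2a, the Chr 4 gene of p16 and p19ARF, was lower (TI median -0.042, minimum -0.87) and Cdkn1a, the p21 gene on Chr 17, was higher (TI median 0.19), each at an adjusted exact p of 0.0484. Trp53 on Chr 11 lies proximal of most TI gains and was not called (TI median 0.018, adjusted exact p = 0.838). Rb1 on Chr 14 reached -0.68 in 1 TI tumour (adjusted exact p = 0.127). Of 7 RAS-MAPK genes, Map2k1 on Chr 9 was lower (adjusted exact p = 0.0271), and of 8 genes of Chr 6 around the transgene site, Braf, Ret and Met included, none was called at an adjusted p under 0.05, and none at an unadjusted exact permutation p under 0.05. None of 6 genes of MYCN protein turnover was called, Aurka, Plk1 and Fbxw7 included, and 2 of them had an unadjusted exact permutation p under 0.05. Of 9 adrenergic identity genes, Isl1 was lower in TI by medians of 0.0014 and 0.014, a difference of background size (adjusted exact p = 0.0330). Among IGF2BP and LIN28 family members and MYC paralogs, Igf2bp1 and Tert were called, the latter at medians of -0.0028 and 0.013, and Igf2bp2, Igf2bp3, Lin28a, Lin28b, Myc and Mycl were not.

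Gains and losses occurred together in more TI than TIM tumours. A gained and a lost region of at least 5 Mb each were present in 5 of 8 TI tumours (62.5%, exact Clopper-Pearson 95% interval 24.5 to 91.5%) and in 0 of 8 TIM tumours (up to 36.9%), a difference with a two-sided Fisher's exact p of 0.0256. Of the other TI tumours, 2 had gains only and 1, TI replicate 6, losses only. Of the TIM tumours, 6 had gains only and 2 had neither. With a minimum length of 10 Mb the counts were 4 and 0 (Fisher's exact p = 0.0769), and with 1 Mb they were 7 and 1 (Fisher's exact p = 0.0101). TI replicate 8 was among the 5 tumours with both. Whole-chromosome events, defined as autosomes covered to at least 90%, did not pass the test. They numbered 0 to 2 per TI tumour (median 1) and 0 or 1 per TIM tumour (median 0.5), with an exact permutation p of 0.122 (adjusted p = 0.122), and TI replicate 8 had 1. Segmental events did: there were 1 to 6 per TI tumour (median 3) and 0 to 2 per TIM tumour (median 0), with TI higher in 59 of 64 pairs (two-sided exact permutation p = 0.00155, adjusted p = 0.00389 over 5 measures). TI replicate 8 had 2, which is inside the TIM range. With regions joined over gaps of up to 1 Mb the medians were 2 and 0 (exact permutation p = 0.00435). TI held 11 segmental losses in 6 tumours, or 8 after such joining, since 5 of the 11 are pieces of Chr 4 in 2 tumours. Before joining, the longest covered 63.06 Mb on Chr 14 of TI replicate 7 at -0.68, and TIM held none.

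Shifts of several autosomes were present in the same TI tumours. Chr 11 and Chr 12 were both raised in the same 7 TI tumours and together in no TIM tumour. The 5 TI tumours with lowered Chr 9 all had raised Chr 11 and Chr 12, and 4 of them also had raised Chr 17. The 4 TI tumours with raised Chr 6 all had raised Chr 11, Chr 12 and Chr 17. In TIM 1 of the 5 tumours with raised Chr 6 also had raised Chr 11. Since 7 of 8 TI tumours had raised Chr 11 and Chr 12, and no TIM tumour had raised Chr 12 or Chr 17 or lowered Chr 9, these counts follow largely from those of the single autosomes. With 8 tumours a group these combinations were counted and not tested. No relation between the amounts of raised and lowered sequence passed the test within either group. Pearson's r was 0.017 and Spearman's rho 0.26 in TI (n = 8, permutation p = 0.965 and 0.536, BH-adjusted 0.965 and 0.793), with r = 0.11 without the 2 tumours farthest from the median. In TIM r was -0.38 and rho 0.12 (n = 8, permutation p = 0.310 and 0.793, BH-adjusted 0.621 and 0.793), with r = 0.63 without 2 tumours.

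**Figure D4:**
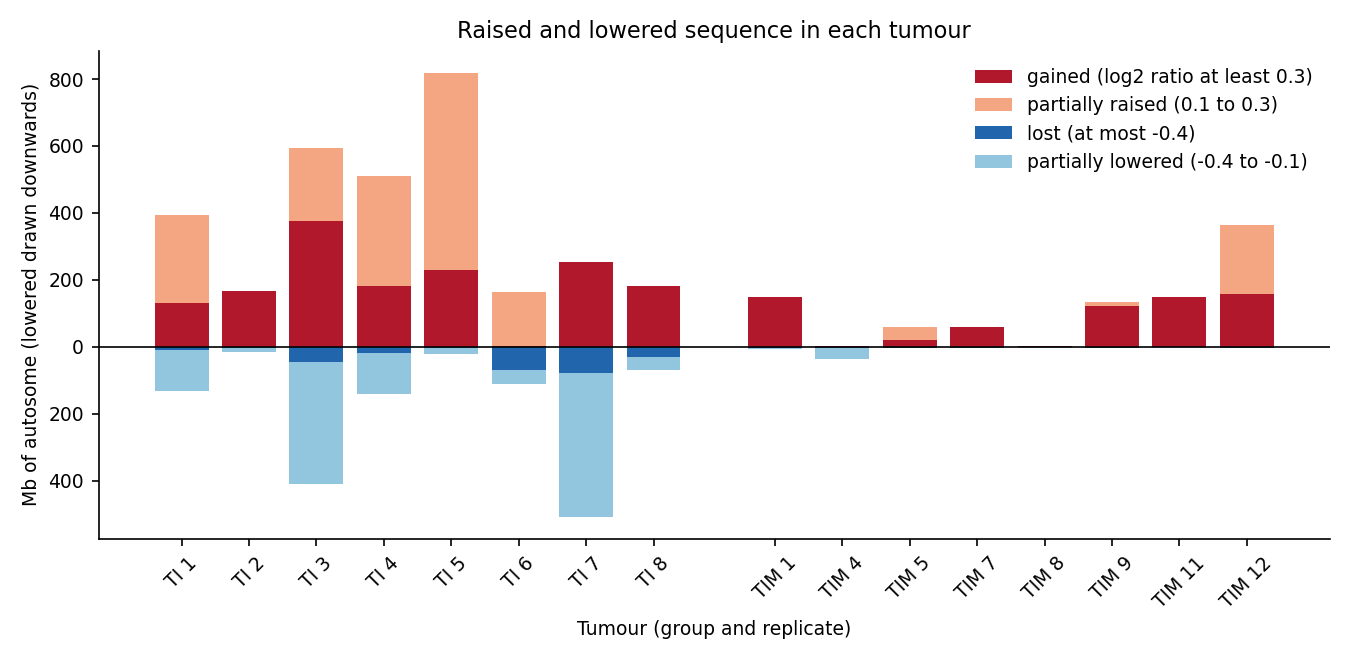
Autosomal sequence (Mb, y axis) that was gained or partially raised (upwards) and lost or partially lowered (downwards) in each of 8 TI and 8 TIM tumours (x axis), as stacked bars. TI tumours extend in both directions and 6 of them hold 202.5 to 608.0 Mb of partially shifted sequence, whereas TIM bars point upwards or are near 0, with the exception of TIM replicate 4.

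Partial shifts were a feature of TI tumours. The partially shifted sequence ranged from 14.52 to 608.0 Mb in TI (median 407 Mb) and from 0.68 to 206 Mb in TIM (median 7.19 Mb), against 0 to 1.02 Mb in AGM. TI was higher in 59 of 64 pairs (two-sided exact permutation p = 0.00295, adjusted p = 0.00492). Partial shifts made up over 50% of all shifted sequence in 6 TI and 3 TIM tumours. Of 152 combinations of autosome and tumour, 22 in TI had over 50% of the autosome partially shifted, 12 raised and 10 lowered, in 6 tumours. In TIM there were 2 of 152, Chr 3 and Chr 18 of TIM replicate 12. Chr 9 was the autosome most often lowered in this way, in 4 TI tumours with bin medians of -0.38 to -0.15, and Chr 17 the one most often raised, in 3 TI tumours at 0.14 to 0.26.

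Full and partial shifts stood side by side in single TI tumours. TI replicate 1 had Igf2bp1 on distal Chr 11 at 0.57 and Mycn on Chr 12 at 0.14, and TI replicate 4 had them at 0.53 and 0.15. In TI replicates 3, 5 and 7 the genes were within 0.028 of each other, at about 0.6 each. TI replicate 2 had Igf2bp1 at 0.96 and Mycn at 0.60, the only TI tumour with distal Chr 11 near 2 extra copies. TI replicate 6 departed from the others. It had Igf2bp1 at 0.028 and Mycn at 0.064, no gained region of at least 5 Mb, losses over 42.3% of Chr 4 at -0.94 to -0.87 and a partially raised Chr 14 at 0.18. Partial shifts were scarce in TI replicate 8 with the AGH prefix (41.9 Mb, 16.6% of its shifted sequence) and in TI replicate 2 with the SH prefix (14.52 Mb, 7.96%).

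The mean absolute log2 ratio, which needs no threshold, separated the groups completely. It ranged from 0.059 to 0.16 in TI (median 0.082) and from 0.016 to 0.058 in TIM (median 0.034), with 64 of 64 pairs higher in TI (exact permutation p = 1.55e-04, adjusted p = 7.77e-04). The AGM median was 0.016, and TIM replicate 8 lay within the AGM range of 0.016 to 0.017. TI replicate 8, at 0.069, exceeded all TIM tumours. Without Chr 12 the medians were 0.079 and 0.036 (exact permutation p = 0.00466), and the ranges of 0.032 to 0.14 and 0.015 to 0.061 overlapped. The gap between the groups was narrow, 0.0589 against 0.0582. It closed with segment means (0.073 to 0.24 in TI, 0.033 to 0.12 in TIM) and with centred profiles (0.054 to 0.15 and 0.0049 to 0.058), each at an exact permutation p of 6.22e-04.

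**Figure D5:**
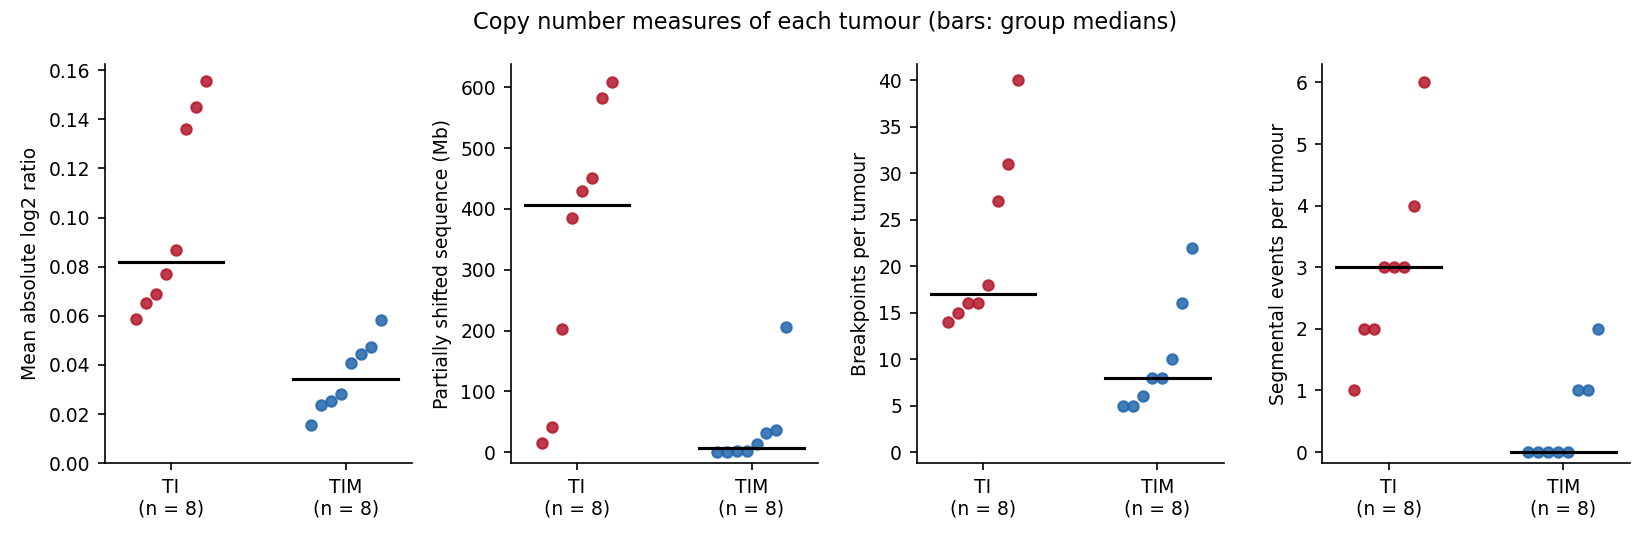
Mean absolute log2 ratio, partially shifted sequence (Mb), breakpoints and segmental events (y axes) per tumour in TI (n = 8) and TIM (n = 8), with points as tumours and bars as medians. The groups do not overlap in the mean absolute log2 ratio (lowest TI 0.059, highest TIM 0.058), and overlap in the other measures.

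Whether breakpoints were more frequent in TI depended on how boundaries shared with the glands were treated. Boundaries with a step of at least 0.2 numbered 24 to 49 per TI tumour (median 33.5), 24 to 40 per TIM tumour (median 29.5) and 25 to 36 per AGM gland (median 30), and the tumour groups did not pass the test (exact permutation p = 0.340). Boundaries that lay more than 100 kb from any AGM boundary numbered 14 to 40 in TI (median 17) and 5 to 22 in TIM (median 8), with TI higher in 55 of 64 pairs (two-sided exact permutation p = 0.00886, adjusted p = 0.0111). This filter took out 8 to 18 boundaries per TI tumour (median 12) and 18 to 24 per TIM tumour (median 20.5), and the AGM glands share the AGH prefix with all TIM tumours but with only 1 TI tumour, so the filter is uneven between the groups. A count that does not use AGM, of boundaries with segments of at least 1 Mb on both sides, gave 2 to 18 in TI (median 6) and 0 to 4 in TIM (median 1.5), with a median of 0 in AGM (exact permutation p = 0.00497). The values below are those with AGM boundaries left out. Gains of a whole chromosome add boundaries at its ends. Without the first 3.5 Mb and the last 0.5 Mb of each autosome the medians were 12.5 and 7.5 (exact permutation p = 0.0297). TI breakpoints were spread over 17 autosomes and TIM breakpoints over 15. These counts include the ends of short segments, such as that at Dbh in 4 TI and 2 TIM tumours. Some autosomes rest on few tumours, such as Chr 8 with 17 breakpoints in 2 TI tumours. Chr 4 had 23 in 4 TI tumours and 0 in TIM, Chr 11 had 17 in 8 TI tumours and 3 in TIM, and Chr 6 had 7 in TI and 16 in 6 TIM tumours. TI replicate 8 had 16 breakpoints, as many as TIM replicate 11 and fewer than TIM replicate 12.

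The transgene site and the driver of the Cre were examined as focal loci. At Gt(ROSA)26Sor (chr6:113043843-113055336) the log2 ratio of TI tumours lay between 0.0050 and 0.51 and that of TIM tumours between 0.019 and 3 (unadjusted exact permutation p = 0.0482). TIM replicates 5 and 9 reached 3 in segments of 5.88 and 1.1 Mb that hold the site, while the mean of Chr 6 in these tumours was 0.13 and 0.045. In all, 4 tumour segments lay within 0.01 of 3 and the highest value was 3.06, so 3 may be near the top of the deposited scale, and these values are not read as copy numbers. TIM replicate 7 had a step to 0.71 over 2.06 Mb and TIM replicate 12 a step to 0.78 over 9.78 Mb around it. No TI tumour had a raised segment under 10 Mb at the site. Dbh on Chr 2, the gene of dopamine beta-hydroxylase, lay in a raised segment of 0.12 to 0.22 Mb in 4 TI tumours (replicates 1, 4, 5 and 7, at 0.83 to 1.16) and 2 TIM tumours (replicates 7 and 8, at 0.85 and 0.97), while the other TI and TIM tumours were between 0.0042 and 0.045 and the AGM glands, also labelled CRE +, between 0.0079 and 0.015. The groups did not pass the test at Dbh (adjusted exact p = 0.838).

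A short locus of Chr 5 differed with the title prefix as well as with genotype. Zfp932, a zinc finger gene on Chr 5, was at -5.3 in all TIM tumours, all AGM glands and TI replicate 8, and between -0.99 and 0.0077 in the 7 SH-prefix TI tumours (adjusted exact p = 0.0271).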

How the data were processed

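The authors aligned sWGS reads (HISAT2 2.1.0, cutadapt 2.8 and SAMtools 1.10 per the submitters' processing notes) to mm39 and determined copy number with cn.MOPS relative to the AG glands. The deposited table gives each segment of a sample a median and a mean log2 ratio, and the log2 median was used as deposited. The study describes low coverage. Window counts and the depth of each sample are not in the table used here, so no interval from depth is given. Precision is given by the AGM glands and the spread between tumours. Segments were placed on 20 kb bins of 19 autosomes (2462 Mb). The lowest value, -5.32, equals log2 of 0.025 and bounds deep losses.

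Groups came from the sample descriptions. Autosome means, gene means (GENCODE M39, GRCm39) and 5 measures per tumour were compared by two-sided exact permutation tests of the rank sum over all splits, with Benjamini-Hochberg (BH) adjustment over 19 autosomes, 20604 genes or 5 measures. Profiles were compared by a pseudo-F over autosome means. A replicate number shared by a TI and a TIM tumour does not mark a common animal in the labels. The rule for named genes took 11 lists and, per autosome, the 2 called genes with the widest difference of medians. The text gives every list by its counts and names part of the members, and of the genes per autosome only Zfp932, a choice made after their values were seen. Groups, lists and tests were chosen with earlier results of these data known. Tests were checked on simulated data. Alternatives were the segment mean, centring, other thresholds and lengths, subsets of tumours, a difference of means and a replicate block. No 2 samples held identical values (0 of 210 pairs). Python 3.11.15 was used with scipy 1.17.1, numpy 2.4.6, matplotlib 3.10.9 and pandas 2.3.3.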

Additional observations from a re-analysis of the deposited data

Results flagged for a closer look

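In 15 of 48 sets of 8 values (5 measures and 19 autosome means in each group), 1 tumour lay farther from the rest than Dixon's 95% critical value allows (chance gives 2.4 sets), and all values are mean log2 ratios of an autosome unless stated. In TI, replicate 5 stood apart on Chr 2 (0.13, next 0.029) and Chr 18 (0.21, next 0.025), replicate 7 on Chr 5 (-0.091, next -0.036) and Chr 14 (-0.48, next -0.066), and replicate 4 on Chr 10 (0.15, next 0.033). In TIM, replicate 12 stood apart in partially shifted sequence (206 Mb, next 36.4 Mb) and on Chr 3 (0.12, next 0.019) and Chr 18 (0.14, next 0.025). The same tumour was lowest, by amounts of background size, on Chr 9 (4.80e-04), Chr 13 (-0.0067) and Chr 16 (-0.0017). TIM replicate 9 stood apart on Chr 11 (0.45, next 0.11), Chr 10 (0.069, next 0.017) and Chr 8 (0.052, next 0.013), and TIM replicate 4 on Chr 15 (-0.12, next -0.0051). TIM replicates 9 and 12 also had the most segments of the TIM tumours, 117 and 123.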

How the results depend on the processing

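Of 217 repeats of the 9 results, with the replicate block and the AGH tumours left aside, 188 kept their direction and side of the threshold (or stayed within 1.5 times the count) and none reversed. When 1 tumour was left out in turn, 2 to 8 autosomes and 646 to 6436 genes were called (4 and 4433 with all tumours), whole-chromosome events had an exact permutation p of 0.0326 to 0.189, and the other 6 results stayed past the threshold. With only the TI tumours labelled +/+, 2 autosomes and 1025 genes were called. Outside the adrenal gland Chr 4 and Chr 17 were not called and Chr 16 was, the exact permutation p of whole-chromosome events was 0.0326 and the difference on Chr 6, not called, changed sign (p = 0.366), as it did with the median of bins (p = 0.878). Thresholds of 0.2 and -0.2 gave whole-chromosome events a p of 0.0194, a minimum length of 10 Mb gave the tumours with both gained and lost regions a p of 0.0769, and keeping boundaries near those of AGM gave breakpoints a p of 0.340, where the filter takes out a median of 12 boundaries per TI and 20.5 per TIM tumour. The causes of the other changes were not tested.

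The AGH tumours alone (1 TI, 8 TIM) cannot pass 0.05, since the smallest p is 0.111 for the profile and Fisher's exact test and 0.222 for a rank test. No autosome and no gene (0) was called, and the exact permutation p was 0.111 for the profile and for tumours with both gained and lost regions, 0.222 for the mean absolute log2 ratio and segmental events, 0.444 for partially shifted sequence and 0.556 for breakpoints, while Chr 19 changed sign (p = 0.667). The replicate block paired 5 TI with 5 TIM tumours by number and cannot go below 0.0625. It gave 0.0625 for the mean absolute log2 ratio, breakpoints, partially shifted sequence and segmental events, 0.125 for whole-chromosome events, and 0 called autosomes and genes. The correlation of same-numbered tumours ran from -0.56 to 0.71. Whether a shared number pairs tumours cannot be told from these values or from the labels. The end-of-autosome, long-segment, Chr 12, 0.1 difference, joined-region and segment-number alternatives were chosen after seeing the data. Depth per tumour is not in the table, and small shifts are compressed in the deposited values.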

Other observations

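A short lowered segment on Chr 10 had the same start and end in 3 of the 8 TI tumours and was found in none of the 8 TIM tumours (0) or the 5 AGM adrenal glands (0). It lay at chr10:89720001-89800000 (GRCm39) and was 0.08 Mb long, and its middle lay inside Anks1b, which the annotation places at 89708785 to 90809162 of that chromosome. The log2 ratio of the segment was -0.82 in TI replicate 2, -0.98 in TI replicate 3 and -0.90 in TI replicate 6. In the other 5 TI tumours the same position had log2 ratios from 0.01 to 0.17, in the 8 TIM tumours from 0.00 to 0.08, and in the AGM glands from 0.01 to 0.02. The 3 tumours with the segment have the SH prefix, as do the TI tumours without it other than TI replicate 8. All TIM tumours, all AGM glands and TI replicate 8 are AGH, so genotype and prefix cannot be told apart at this locus. The locus was singled out after its values were seen, so the difference between the groups was not tested.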
